A study of Mus musculus with 4 samples.

Results

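Transcripts of the aminoacyl tRNA synthetases were measured in mouse T-helper 17 (Th17) cells, which are CD4 T cells that produce interleukin 17. Genes were chosen by symbol alone: the enzyme genes named for an amino acid and the ending "ars", with the ending 2 taken as the mitochondrial enzyme, the fused Glu and Pro enzyme Eprs, Tarsl2, and the scaffold genes Aimp1 and Aimp2. This gave 40 of the 50600 genes in the tables, made up of 21 cytosolic enzyme genes, 17 mitochondrial enzyme genes and 2 scaffold genes. The 4 libraries form 1 group, primary Th17 cells of strain C57BL/6NJ with no further treatment or allele in the labels, and are numbered as biological replicates 1 to 4. The labels give different biosamples but 1 donor identifier, with no word on separate animals or cultures. The spread between libraries, which may be technical, is therefore all that an SD or p-value covers here. Sex, age and time in culture were not given in the labels, and output names in the headers hold a 2 hour tag whose starting event is not named. The labels link a protocol for differentiation of CD4 T cells. The assay title is total RNA-seq, and the linked library protocol is named for poly(A)+ RNA.

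An aminoacyl tRNA synthetase joins an amino acid to its tRNA, the step that sets which residue the ribosome inserts for a codon. Cells keep a cytosolic set and a separate nuclear-encoded set for the mitochondrial ribosome, while Gars and Kars each make the enzyme for both places. Mitochondria charge the tRNA for Gln by way of Glu, so no mitochondrial Gln enzyme exists. A group of cytosolic enzymes is bound in the multi-synthetase complex around the scaffold proteins Aimp1, Aimp2 and Eef1e1. Many cytosolic synthetase genes are known targets of Atf4, the transcription factor of the amino acid and stress response, and of Myc, and T cell activation is known to raise protein synthesis.

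Library totals were 25847970 to 40652146 counts, so that 3 counts, the limit that a count of 0 allows, corresponded to 0.0738 to 0.116 CPM (counts per 1000000 counts of the library), for counting error only. All 5 CD4 T cell markers reached 1 TPM (counts per union exon length, scaled to a sum of 1000000), with Cd4 at 364 ± 35.1 TPM (SD, n = 4). Of 7 Th17 markers, 4 reached 1 TPM. Il17a was at 5.65 ± 1.20 TPM, and the receptor genes Il23r and Ccr6 had 11 and 15 counts over all libraries. Among markers of other cells, 1 of 2 CD8 T cell, 1 of 5 B cell, 1 of 3 NK, 0 of 5 myeloid and 0 of 3 erythroid markers reached 1 TPM. Those at 1 TPM or more were Cd8b1 (CD8 T cell) at 27.0 ± 4.86, Klrd1 (NK) at 10.5 ± 0.766 and Cd79a (B cell) at 1.15 ± 0.516 TPM. Cd8a had 32 counts over all libraries. Ms4a1 (B cell), Ncr1 and Klrb1c (NK) and Hbb-bs, Hba-a1 and Alas2 (erythroid) had 0 counts.

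All 40 genes were transcribed. Each reached 1 TPM in every library, while 45.2% of 21764 protein coding genes reached that level on average. In bulk RNA, fewer expressing cells and less RNA per cell cannot be told apart. Together the 40 genes took 0.316 ± 0.0170% of all counts, and 0.211 ± 0.00745% without Lars2, the mitochondrial Leu enzyme. The median level per library was 55.8 ± 1.77 TPM over the cytosolic enzymes and 11.9 ± 2.35 TPM over the mitochondrial enzymes, beside 19.7 ± 1.41 TPM over all 11567 genes that passed the expression filter. Levels spanned from 2.63 ± 0.274 TPM for Tarsl2 to 322 ± 54.6 TPM for Lars2. Every member passed the expression filter.

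**Figure D1:**
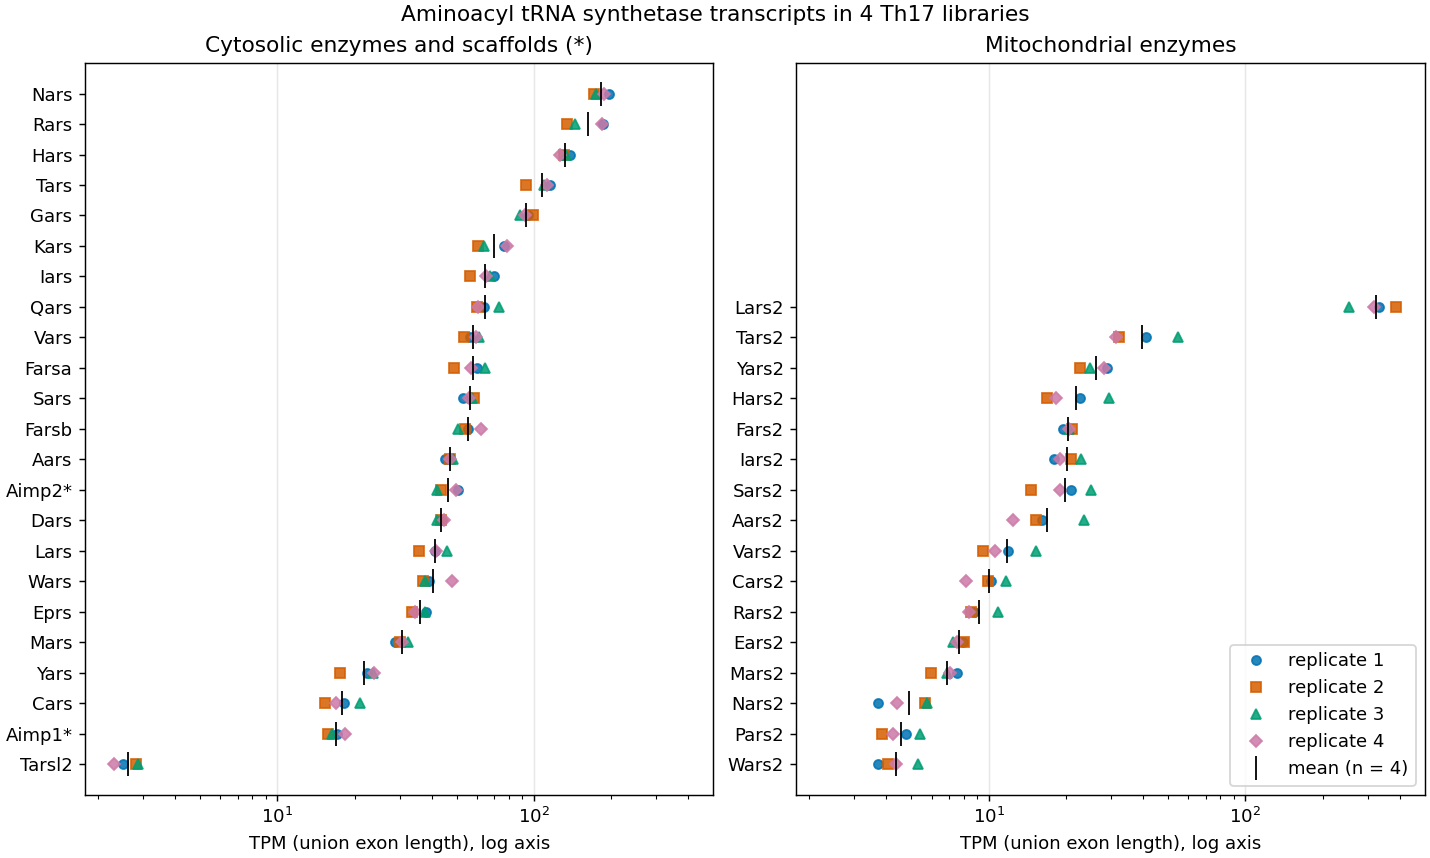
Level of 39 of the 40 genes in TPM per union exon length (log axis), with cytosolic enzymes and scaffolds (asterisk) on the left and mitochondrial enzymes on the right. Colored symbols are the 4 libraries and the black bar is their mean. Nars leads the cytosolic enzymes at a mean of 182 TPM, and Lars2 stands apart from the other mitochondrial enzymes at 322 TPM.

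Per union exon length, enzymes for Asn, Arg, His, Thr and Gly led the cytosolic set. Nars (chr18:64499665-64516557 in mm10), which charges Asn, had 195, 171, 174 and 188 TPM in replicates 1 to 4, a mean of 182 ± 11.3 TPM. Rars (chr11:35808381-35834506), the Arg enzyme of the complex, had 185, 135, 144 and 184 TPM, a mean of 162 ± 26.3 TPM. Replicates 1 and 4 were the higher pair for Rars, and Nars in replicates 2 and 3 lay within the range of Rars. Hars, the His enzyme, had 138, 130, 134 and 126 TPM (132 ± 4.95), and its 4 libraries lay within 1.09-fold of each other. Tars, the Thr enzyme, had 115, 93.3, 110 and 112 TPM (107 ± 9.73), with replicate 2 lowest. Gars, the Gly enzyme of both compartments, had 94.6, 99.0, 87.9 and 92.5 TPM (93.5 ± 4.63). Tars and Gars overlapped between libraries, so their order was within the spread. Kars, the Lys enzyme of both compartments and of the complex, was sixth with 76.7, 60.7, 63.9 and 78.7 TPM (70.0 ± 9.01), again with replicates 1 and 4 above the others. Nars and Hars stood above 91.3% and 87.6% of the protein coding genes that averaged at least 1 TPM.

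A middle group of 11 enzymes lay between 35.9 and 64.7 TPM. Iars (Ile) and Qars (Gln), both in the complex, averaged 64.7 ± 5.96 and 64.4 ± 6.04 TPM. Vars (Val) averaged 57.6 ± 3.40 TPM and Sars (Ser) 56.2 ± 2.29 TPM. The Phe enzyme is built from the alpha subunit Farsa and the beta subunit Farsb. Per union exon length their transcripts averaged 57.6 ± 6.61 and 55.5 ± 4.81 TPM, a difference smaller than either SD. Divided by the length of the longest coding transcript, they averaged 99.7 ± 11.2 and 49.7 ± 4.38 TPM, so their likeness depended on the length used. From Iars down to Farsb, each enzyme overlapped the next between libraries per union exon length. Aars (Ala) averaged 46.9 ± 1.27 TPM, Dars (Asp) 43.4 ± 1.18 TPM, Lars (Leu) 41.1 ± 4.19 TPM, Wars (Trp) 40.3 ± 5.02 TPM and Eprs (Glu and Pro) 35.9 ± 2.22 TPM. Aars, Dars and Hars had the smallest spread of the cytosolic enzymes, with SDs of 2.71%, 2.71% and 3.75% of their means.

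Per union exon length, enzymes for Met, Tyr and Cys and the second Thr enzyme were lowest. Mars, which charges both the initiator and the elongator Met tRNA, had 28.7, 30.1, 32.4 and 30.7 TPM (30.5 ± 1.54). Yars, the Tyr enzyme, had 22.3, 17.6, 23.5 and 23.9 TPM (21.8 ± 2.92), with replicate 2 lowest. Cars, the Cys enzyme, had 18.2, 15.4, 21.02 and 17.0 TPM (17.9 ± 2.37) and overlapped Yars. Tarsl2, a Thr enzyme encoded apart from Tars, had 2.50, 2.83, 2.88 and 2.30 TPM (2.63 ± 0.274) from 677 counts. Tarsl2 therefore stood below every other member in all 4 libraries.

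The scaffolds of the complex differed from each other. Aimp2 had 50.6, 43.5, 41.9 and 49.8 TPM (46.4 ± 4.36), and Aimp1 had 17.1, 15.8, 16.4 and 18.4 TPM (16.9 ± 1.14), so Aimp2 was higher in every library per union exon length. This order depends on the gene length used. Where each gene was divided by the length of its longest coding transcript, Aimp1 averaged 58.6 ± 3.95 TPM and Aimp2 45.1 ± 4.27 TPM. Complex members (8 enzymes and both scaffolds) had a median of 45.4 ± 2.02 TPM, and the 13 free cytosolic enzymes 55.8 ± 1.77 TPM. On the log2(TPM + 1) scale the complex minus free difference of medians was -0.23, -0.29, -0.38 and -0.26 in replicates 1 to 4, a mean of -0.29 ± 0.07. By transcript length it was 0.07 ± 0.09, so no order of complex and free enzymes held across both lengths. Of the class II enzymes, which attach the amino acid through a different catalytic fold from class I, 11 cytosolic members had a median of 61.1 ± 2.40 TPM, and the 10 class I members had 40.7 ± 3.46 TPM. By transcript length these medians were 83.9 ± 2.78 and 51.9 ± 2.93 TPM. Eprs, which joins a class I Glu enzyme and a class II Pro enzyme, was counted in class I only.

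Among mitochondrial enzymes Lars2 stood apart. Lars2 (chr9:123366927-123462666) had 333, 387, 254 and 317 TPM from 139668 counts in all, and every library lay above every other synthetase transcript of that library. Replicate 2 was highest and replicate 3 lowest, 1.52-fold apart. The last exon of the Lars2 transcript used here (chr9:123461499-123462664) holds a stretch of 72 bases that is 98.6% identical to a transcript of Gm15564 on chromosome 16, and a stretch of 196 aligned bases that is 80.1% identical to AA474408 on chromosome 7. Gm15564 itself had 37.7, 32.4, 15.9 and 24.4 TPM from 904 counts, and AA474408 had 25 counts. Replicate 3 was lowest for both Lars2 and Gm15564. The part of this shared stretch in the Lars2 level was not tested, since the tables give 1 count per gene and none per exon.

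The next mitochondrial enzymes were far lower, and their order here is per union exon length. Tars2, for Thr, had 40.9, 32.1, 54.6 and 31.3 TPM (39.7 ± 10.8), with replicate 3 above the rest. Yars2, for Tyr, had 28.9, 22.8, 24.9 and 28.1 TPM (26.2 ± 2.86). Tars2 exceeded Yars2 in all 4 libraries. Hars2 (21.9 ± 5.65 TPM), Fars2 (20.4 ± 0.692), Iars2 (20.2 ± 2.17) and Sars2 (19.9 ± 4.34) followed within their spread of each other, and Aars2 averaged 16.9 ± 4.76 TPM. Below them were Vars2 (11.8 ± 2.48 TPM), Cars2 (10.0 ± 1.47), Rars2 (9.14 ± 1.19), Ears2 (7.69 ± 0.362), Mars2 (6.86 ± 0.668) and Nars2 (4.87 ± 0.992). Among the lowest were the enzymes for Pro and Trp. Pars2 had 4.77, 3.86, 5.42 and 4.22 TPM (4.57 ± 0.679), and Wars2 had 3.70, 4.07, 5.28 and 4.37 TPM (4.36 ± 0.678). Both were highest in replicate 3, and they overlapped each other.

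For most amino acids the cytosolic enzyme was above its mitochondrial counterpart. Taking medians of log2(TPM + 1), the cytosolic minus mitochondrial difference was 2.12, 2.32, 1.85 and 2.32 in replicates 1 to 4, a mean of 2.15 ± 0.22, and was smallest in replicate 3. Of 17 pairs with 1 enzyme for each compartment, the cytosolic enzyme was higher in 4 of 4 libraries for 15. Per union exon length the difference was largest for Asn (Nars against Nars2, 4.98 ± 0.34) and Arg (4.00 ± 0.34), and it was 2.95 ± 0.25 for Trp. It was 2.73 ± 0.10 for Pro, 2.57 ± 0.31 for His, 2.21 ± 0.21 for Val, 2.08 ± 0.12 for Glu and 2.00 ± 0.16 for Met. The smaller differences were 1.63 ± 0.23 for Ile, 1.48 ± 0.33 for Ser, 1.46 ± 0.35 for Ala, 1.44 ± 0.34 for Thr, 1.33 ± 0.13 for Phe and 0.78 ± 0.16 for Cys.

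The Tyr and Leu pairs had the opposite order in 4 of 4 libraries. For Tyr, the level was 21.8 ± 2.92 TPM for Yars and 26.2 ± 2.86 TPM for Yars2, and the log2 difference was -0.36, -0.36, -0.08 and -0.23, a mean of -0.25 ± 0.13. For Leu, Lars had 41.3, 35.7, 45.9 and 41.5 TPM, against the Lars2 values given above, and the log2 difference was -2.93 ± 0.39. Each of the 17 pairs reached p = 0.125 in a two-sided exact sign-flip permutation test (also 0.125 after Benjamini-Hochberg adjustment over the pairs), which is the smallest value that 4 libraries allow. No pair could therefore pass 0.05. By transcript length, Thr (-0.06 ± 0.34, cytosolic higher in 2 of 4 libraries) and Cys (-0.06 ± 0.17, 1 of 4) lost their order, and 13 pairs kept the cytosolic enzyme higher in every library. On that scale Pro had the largest difference, 4.47 ± 0.09, followed by Asn at 4.15 ± 0.35 and Arg at 4.05 ± 0.34.

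**Figure D2:**
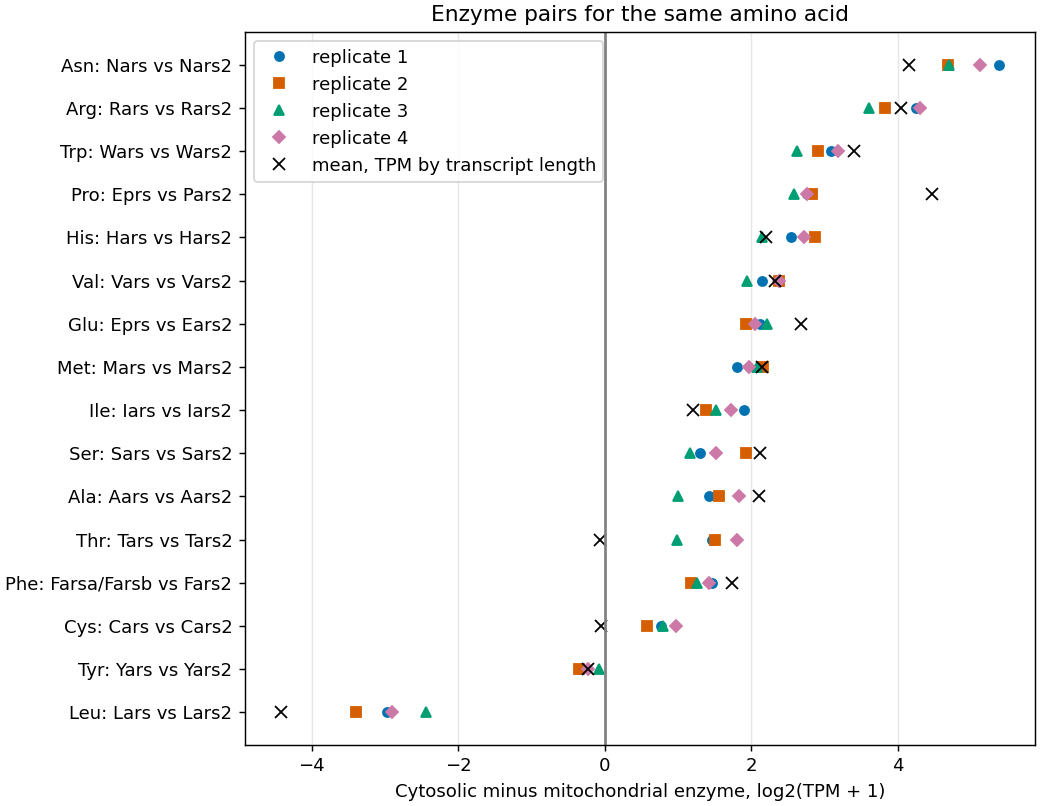
Cytosolic minus mitochondrial enzyme for 16 of the 17 amino acids, as a difference of log2(TPM + 1). Colored symbols are the 4 libraries by union exon length and crosses are the mean by transcript length. Points right of 0 have the cytosolic enzyme higher, and Tyr and Leu lie left of 0 in every library.

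Levels between genes rested on the length chosen for each gene. The union of all annotated exons exceeds the main transcript for many synthetase genes. With the length of the longest coding transcript in its place, 9 of 40 members had more than 1.5 times their level by union length, and the ratio of the levels spanned 0.696 to 3.46 over the members. It was highest for Aimp1 (3.46), Cars2 (2.65), Eprs (2.57), Tars2 (2.01) and Lars2 (1.98). Members whose length stayed the same, such as Nars and Hars, fell to 0.696 of their level through the scaling to a fixed sum alone. Eprs has a union length of 18102 bases and a transcript length of 4906 bases. Per transcript length Eprs averaged 92.1 ± 5.49 TPM, beside 35.9 TPM per union length. Sars averaged 108 ± 4.45 TPM, Qars 105 ± 9.55 TPM and Rars 173 ± 28.1 TPM by transcript length, and Nars 127 ± 7.86 TPM, so that Rars led the cytosolic enzymes on this scale. Farsa averaged 99.7 ± 11.2 TPM and Kars 99.4 ± 12.8 TPM by transcript length, and Hars (92.0 ± 3.33), Gars (85.3 ± 4.45) and Tars (74.8 ± 6.67) then ranked 8, 9 and 10 of the 21. Lars, at 28.6 ± 2.84 TPM, lay below Yars, at 31.1 ± 4.09 TPM, on this scale. Cars2, at 26.5 ± 3.83 TPM, moved from rank 10 to rank 4 of the 17 mitochondrial enzymes. Its mean then lay above those of Hars2, Fars2, Iars2, Sars2 and Aars2. Lars2, at 640 ± 110 TPM, was first and Tarsl2 (3.86 ± 0.399 TPM) last of the cytosolic enzymes on both scales. The cytosolic minus mitochondrial difference of medians was 2.06 ± 0.09 by transcript length.

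**Figure D3:**
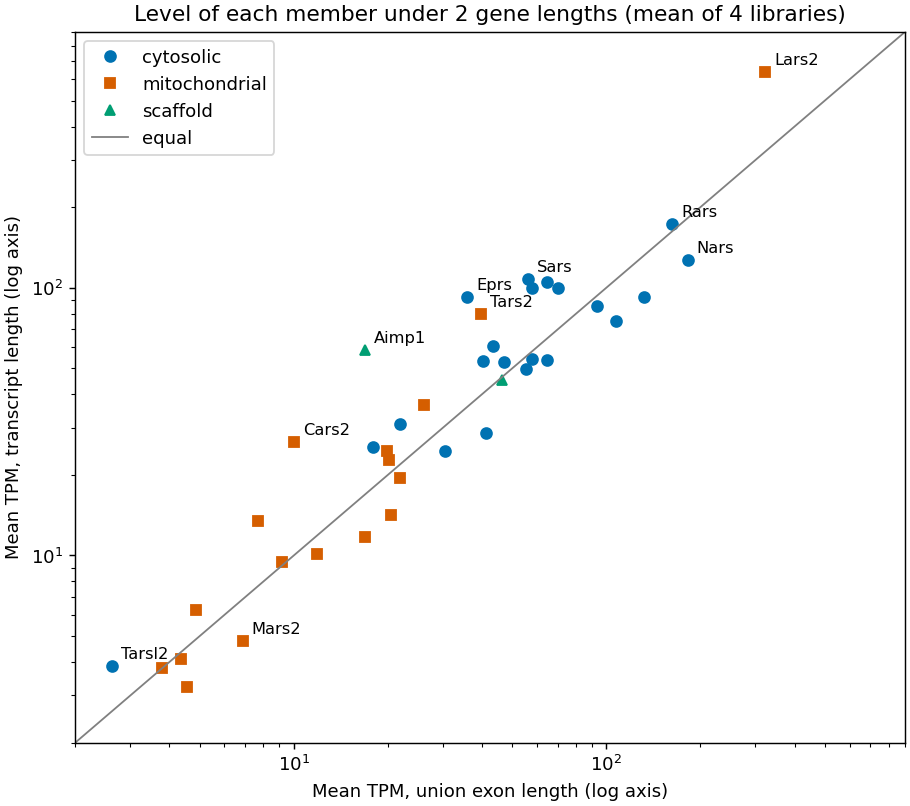
Mean level of each member over 4 libraries, in TPM per union exon length (x, log axis) and per transcript length (y, log axis), by group. The grey line marks equal values. Aimp1, Cars2 and Eprs lie farthest above it, with ratios of 3.46, 2.65 and 2.57. Members of unchanged length, such as Nars, lie below the line at a ratio of 0.696.

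Some members overlap or share sequence with other genes. Exons of Exosc6 on the same strand overlap 14.3% of Aars exon bases, where fragments are not counted under the recorded options. Of the distinct 31-mers in their GENCODE M21 transcripts, Iars shared 14.7%, Fars2 9.83% and Kars 4.98% with a transcript of another gene. The counts were made on GENCODE M13 exons. Fars2 has 5818 such 31-mers beside a counted length of 2125 bases, so its shared sequence may lie in part outside the counted exons. How many fragments were lost or shared was not tested.

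No synthetase gene was called as differing between libraries. edgeR's negative binomial deviance at the trended dispersion called 0 of 40 members at an adjusted p under 0.05, while it called 94 of all 11567 genes tested, 0.813%. The count over all genes was 60, 39, 59 and 35 without replicate 1, 2, 3 and 4 in turn, and stayed at 0 over the members. At an unadjusted p under 0.05 it marked 1 of 40 members, beside 5.98% of all genes. That gene was Tars2, which had its highest level in replicate 3, with an edgeR adjusted p of 0.703. Lars2 followed with an edgeR adjusted p of 0.865, and then Rars with 0.987. The median SD of log2 CPM between libraries was 0.12 over cytosolic enzymes, 0.18 over mitochondrial enzymes, 0.14 over all members and 0.18 over all genes tested. These sets were not matched for abundance, with medians of 55.8 TPM over cytosolic enzymes and 19.7 TPM over all genes tested. On simulated counts the test called 92 of 100 genes raised 4-fold in 1 library and 46 of 100 raised 2-fold. Differences of 2-fold could therefore be missed.

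The most frequent highest library depended on the scaling for the cytosolic set and was replicate 3 for the mitochondrial set on each scale. The difference between the sets was not tested. On the log2 CPM scale after TMM scaling, cytosolic enzymes deviated from their own means by medians of 0.02, -0.05, -0.08 and 0.08 in replicates 1 to 4, and mitochondrial enzymes by 0.05, -0.06, 0.14 and -0.02. The medians over all genes tested were at most 0.01 from 0. Replicate 4 was the highest library for 12 of 21 cytosolic enzymes, 57.1%, against 25.4% of all genes. Replicate 3 was the highest for 10 of 17 mitochondrial enzymes, 58.8%, against 30.3% of all genes. Tars2, Hars2 and Aars2 stood 0.38, 0.34 and 0.40 above their means in replicate 3. Rars and Kars of the complex stood 0.27 and 0.25 above their means in replicate 4 and 0.21 and 0.14 above in replicate 1.

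After TMM scaling the sets thus had different most frequent highest libraries, and on the TPM scale both had replicate 3, though in unlike shares. On the TPM scale the median of all genes lay 0.10 higher in replicate 3, where 50.2% of all genes were highest, and replicate 3 was the most frequent highest library for both sets. It was highest for 8 of 21 cytosolic enzymes and 12 of 17 mitochondrial enzymes, and replicate 4 for 5 of 21 cytosolic enzymes. The nuclear RNA Malat1 was also highest in replicate 3, with 427, 209, 795 and 188 TPM in replicates 1 to 4, and Neat1 had 34.8, 26.0, 58.2 and 20.7 TPM. The part of such RNA in these deviations was not tested.

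**Figure D4:**
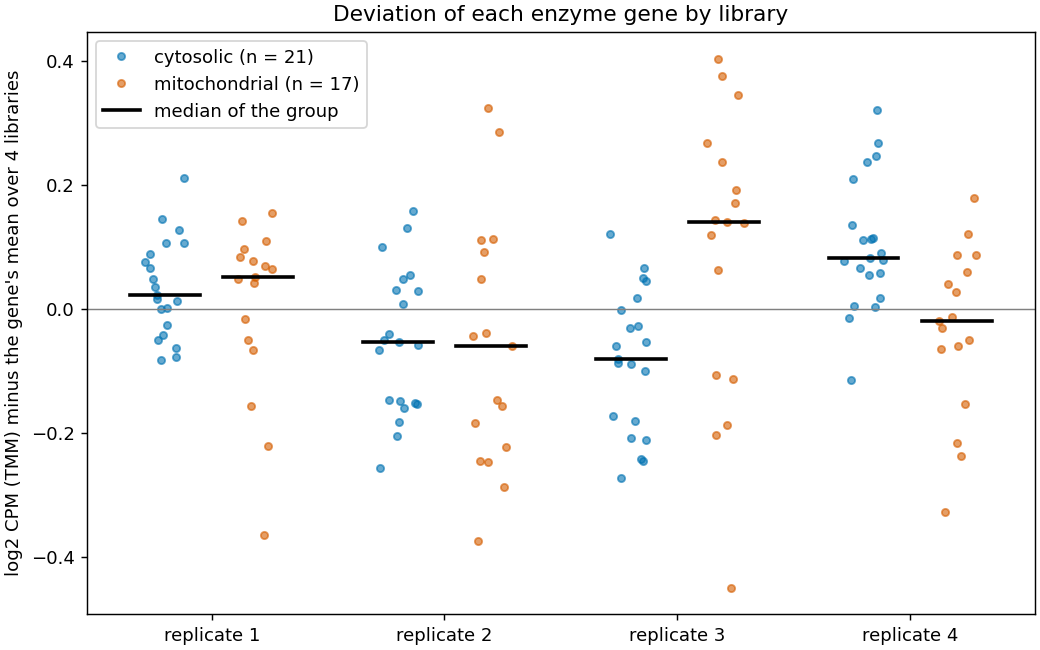
Deviation of each cytosolic (blue) and mitochondrial (orange) enzyme gene from its own mean over 4 libraries, in log2 CPM after TMM scaling, by library. Black bars are medians. In replicate 3 the mitochondrial median is 0.14 and the cytosolic median is -0.08, and no gene was called.

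Synthetase levels were set beside the residues that the measured transcripts encode. The share of each amino acid was computed over nuclear protein coding genes, weighted by TPM. Leu had the largest share, 9.29%, while its cytosolic enzyme Lars was at 41.1 TPM, which gave the lowest level per percent of residues, 4.43 TPM. Per union exon length, His, Asn and Trp had 54.4, 52.0 and 39.5 TPM per percent of residues, with shares of 2.43%, 3.50% and 1.02%. By transcript length their enzymes averaged 92.0, 127 and 53.1 TPM, so that Trp came first of these against the same shares. Over 20 amino acids Pearson's r between the log2 level and the log2 share was 0.23 and Spearman's rho was 0.14, and by transcript length they were 0.38 and 0.36. These points share libraries and, for Glu and Pro, the gene Eprs, so the values are a description. For mitochondrial enzymes and the residues of mitochondrially encoded proteins, r was 0.50 and rho 0.53 over 17 amino acids. Leu was the most frequent of these residues at 14.0%, and r was 0.34 and rho 0.44 without Lars2.

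**Figure D5:**
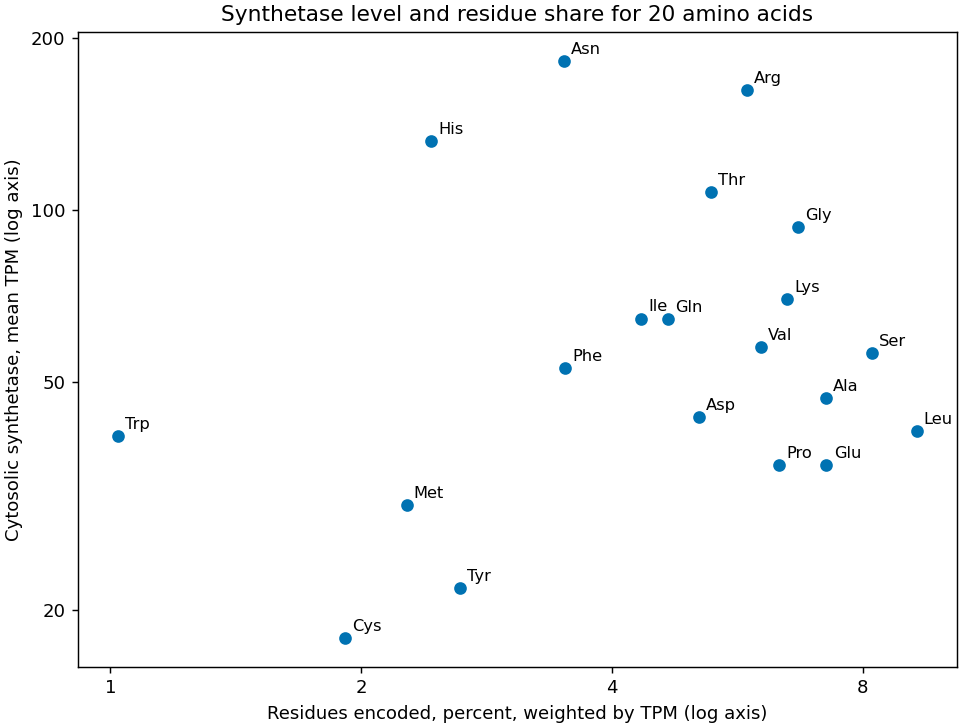
Mean TPM of the cytosolic synthetase (y, log axis) against the percent of encoded residues (x, log axis) for 20 amino acids, with the lower subunit for Phe and Eprs for both Glu and Pro. Asn, His and Arg lie high at shares of 3.50%, 2.43% and 5.81%, and Leu lies low at 9.29%.

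Of 13 other genes of tRNA charging and tRNA quality control, 12 averaged at least 1 TPM, beside 45.2% of protein coding genes. edgeR called 0 of the 13 as differing between libraries, beside 0.813% of all genes tested. An unadjusted edgeR p under 0.05 was reached by 2 (Eef1e1 and Gatc), beside 5.98% of all genes tested. Eef1e1, the third scaffold of the complex, had 200, 163, 138 and 198 TPM (175 ± 29.6), above both Aimp2 and Aimp1 in every library. It was high in replicates 1 and 4, as Rars and Kars were, with an edgeR adjusted p of 0.666. Trnt1, which adds the CCA end that carries the amino acid, averaged 67.3 ± 7.75 TPM, and Elac2, which trims the tRNA 3′ end, 46.1 ± 6.08 TPM. Gatc, a subunit of the enzyme that turns Glu on the mitochondrial Gln tRNA into Gln, had 12.4, 8.87, 6.61 and 14.6 TPM (edgeR adjusted p = 0.313), and it was named after its values were seen. The lowest per union exon length were Dtd2, which removes misattached residues, at 1.55 ± 0.373 TPM, and Pstk of selenocysteine synthesis at 1.23 ± 0.391 TPM. Below both was Aarsd1, an editing protein related to the Ala enzyme, at 0.583 ± 0.363 TPM from 63 counts. By transcript length Pstk averaged 5.98 ± 1.90 TPM, and Gatb, at 2.60 ± 0.412 TPM, was among the 3 lowest in its place.

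Genes of the response to uncharged tRNA were present in part. Of 13 genes, 10 averaged at least 1 TPM, beside 45.2% of protein coding genes. edgeR called 0 of the 10 tested, beside 0.813% of all genes tested. At an unadjusted edgeR p under 0.05 it marked 0, beside 5.98% of all genes tested. Atf4 had 843, 898, 825 and 943 TPM (877 ± 53.4), above every synthetase gene. By transcript length Lars2, at 640 TPM, stood above Atf4, at 611 TPM. Ppp1r15a, which promotes removal of the phosphate from eIF2 alpha, averaged 312 ± 32.0 TPM, and Ddit3, which encodes the stress factor CHOP, 29.9 ± 3.40 TPM. The Atf4 targets at the low end were Asns, the Asn synthesis enzyme, with 34 counts, Chac1 with 5 counts and Nupr1 with 4 counts. Asns had 0.417, 0.239, 0.338 and 0.331 TPM, while Nars, which uses the same amino acid, had at least 171 TPM in every library.

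Promoter windows of 250 bases before to 50 after the annotated start (RefSeq, GRCm38.p6) were matched for 30 of 40 members and searched for a pair of motifs that Atf4 and Myc are known to bind. TGATGCAA, the composite element of Atf4 and a C/EBP partner, read on either strand, was in 4 of 30 member windows (Aars, Iars, Tars and Yars), 13.3%, and in 1.03% of 27025 windows. CACGTG, the E-box bound by Myc and other factors, is its own reverse complement and was in 5 of 30 (Aars, Ears2, Farsb, Iars and Tars), 16.7%, and in 8.09% of all windows. Aars, Iars and Tars held both, as did 19 of all windows, 0.0703%. The 2 motifs share no position in these windows. The windows of these genes are shown because they are the members with the Atf4 element, with capitals for the motifs as read on the gene's strand. Aars is at chr8:111033592-111033841 (plus strand) and Tars at chr15:11399659-11399908 (minus strand), both as the 250 bases before the start. The Tars E-box lies past its start, at chr15:11399622-11399651. Iars is shown as the E-box window at chr13:49682049-49682078 and the Atf4 element window at chr13:49682126-49682155 (plus strand), and Yars at chr4:129189895-129189924 (plus strand).
Aars promoter: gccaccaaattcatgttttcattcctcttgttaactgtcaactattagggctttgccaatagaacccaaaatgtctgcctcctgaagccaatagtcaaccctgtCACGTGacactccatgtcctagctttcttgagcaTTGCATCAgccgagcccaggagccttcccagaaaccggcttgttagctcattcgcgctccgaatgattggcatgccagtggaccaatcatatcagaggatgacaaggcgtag
Tars promoter: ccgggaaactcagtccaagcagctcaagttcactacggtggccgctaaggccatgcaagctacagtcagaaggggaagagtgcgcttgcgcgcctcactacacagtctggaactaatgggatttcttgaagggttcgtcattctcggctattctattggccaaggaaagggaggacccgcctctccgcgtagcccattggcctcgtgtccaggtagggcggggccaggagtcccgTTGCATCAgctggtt
Tars E-box: tccgcctgtggcCACGTGgcgcacgcgcag
Iars E-box: gaccaatcgccaCACGTGttgtttgtaggt
Iars Atf4 element: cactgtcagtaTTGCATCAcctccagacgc
Yars Atf4 element: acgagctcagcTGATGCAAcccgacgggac

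The members with the Atf4 element were spread over the cytosolic levels, with Tars at 107, Iars at 64.7, Aars at 46.9 and Yars at 21.8 TPM. Both members without the Atf4 element but with an E-box were Farsb at 55.5 TPM and the mitochondrial Ears2 at 7.69 TPM. A match of letters is a description of the window and no measurement of binding, and none of these genes was called as differing between libraries.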

How the data were processed

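The authors deposited raw fragment counts per gene and the union exon length of each gene. Per the file headers, they were made with featureCounts 1.4.6-p4 on GENCODE M13 exons, as read pairs with both ends mapped and reverse strandedness (option 2). Alignment names carry STAR (version not given in the sources used here). Labels name mm10. Fragments with several alignments or over several genes were not counted, since no such option is recorded. Of 50600 identifiers, 50376 matched a GENCODE M21 symbol.

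TPM was computed here from counts and lengths, with a pseudocount of 1 on the log2 scale. Differences between libraries were tested with edgeR 4.0.16 in R 4.3.3 (TMM scaling, filterByExpr, intercept only, 3 degrees of freedom, Benjamini-Hochberg adjustment over all 11567 genes tested), after a test on simulated data. The transcript length is that of the M21 transcript with the longest coding region, or the union length where shorter. Residue shares came from the same transcripts, translated. Similar sequence in Lars2 was searched with BLAST 2.17.0 (e-value 1e-20). Replicates were taken from the labels. Members and lists were chosen with earlier results of these data known. Every member is named except 1, which is not reported here singly, with values per library for the 6 highest and 4 lowest cytosolic enzymes, the 3 highest and 3 lowest mitochondrial enzymes, the scaffolds and the pairs of unusual order, and the 3 highest and 3 lowest genes of other lists are named. Alternatives to the scaling, filter, pseudocount, length, members and replicates were run.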

Additional observations from a re-analysis of the deposited data

Results flagged for a closer look

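In 2 of 40 members 1 library lay apart from the other 3, by the gap to its nearest neighbour over the whole range. Wars had 38.9, 37.1, 37.6 and 47.8 TPM, with replicate 4 apart and a ratio of 0.834. Rars2 had 8.75, 8.53, 10.9 and 8.36 TPM, with replicate 3 apart and a ratio of 0.845. Both ratios exceed Dixon's 95% critical value for 4 samples, which chance alone passes in about 1 of 20 groups, the same share as 2 of 40. The share over all genes was not computed, and the ratios are on the TPM scale only. On log2 CPM after TMM scaling, Wars deviated from its mean by -0.04, -0.07, -0.21 and 0.32 in replicates 1 to 4. Rars2 deviated by -0.05, -0.04, 0.14 and -0.05. Neither gene was called by edgeR, with an adjusted p of 1.00 for both.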

How the results depend on the processing

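The count of members called as differing between libraries was 0 under every setting, with 0 to 2 members at an unadjusted edgeR p under 0.05. The count over all genes was 94, and 85 to 108 under other scaling or filters. It fell to 60 without replicate 1, 39 without replicate 2, 59 without replicate 3 and 35 without replicate 4, a range of 35 to 60 from fits on fewer samples. The complex minus free difference was -0.29, and became -0.12 on CPM, -0.10 without Aimp1 and Aimp2, and 0.071 by transcript length. The residue correlation of 0.23 was 0.199 with the summed enzymes and 0.381 by transcript length. The median of the member means was 33.2 TPM, 37.7 TPM over nuclear protein coding genes and 40.8 TPM by transcript length. Single members stayed within 1 SD for 12 of 40 over nuclear protein coding genes and 8 of 40 by transcript length. Without any 1 replicate 40 of 40 did. That count was fixed in advance, since leaving out 1 of 4 values cannot move their mean by 1 SD. The transcript length and the left-out Lars2 were chosen after seeing the data, as was leaving out replicates for the other lists. The cytosolic minus mitochondrial difference kept its direction under every setting run. The 15 pairs with the cytosolic enzyme higher in every library became 13 by transcript length, where the means for Thr and Cys turned to -0.06 each, and stayed 15 under the other settings. The other lists kept 12 and 10 genes at 1 TPM. TPM over nuclear protein coding genes rescaled the levels by a factor of about 1.14, common to the members. By transcript length all members shared a factor of about 0.696, seen in Nars and Hars of unchanged length, beside any change in their own length. The cause of the other changes was not tested. No paired comparison between groups was possible because the study has 1 group. Depth limits Pars2 and Tarsl2 most among members, at 529 and 677 counts.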
